A study of Mus musculus with 6 samples.

Results

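The 35 genes described here encode scaffold proteins of the postsynaptic density and the calcium-dependent kinases and phosphatases that work beside them. They were chosen by gene symbol from the table of estimated counts and FPKM (fragments scaled to transcript length and library size, so a level per length), where all 35 of 35 had a row among 31838 genes. The libraries hold polyadenylated RNA from the hippocampus of wild type C57BL/6 mice aged 4 months. The controls were given corn oil (3 libraries). The treated mice were given 50 mg/kg/day of BBP, the plasticiser butyl benzyl phthalate (3 libraries), a comparison that the series title ties to cognitive impairment. The labels do not say whether a library is 1 animal or a pool, so the p-values measure only the spread between libraries, which may be technical. In whole tissue, fewer cells of a type and less RNA per cell cannot be told apart.

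At excitatory synapses, calcium entering through NMDA receptors binds calmodulin and activates CaMKII, PKC and calcineurin, which set the strength of the synapse in opposite directions. The receptors are held in place by layered scaffolds, in which Dlg proteins bind receptor tails, Dlgap (SAPAP) proteins link Dlg to Shank, and Homer ties Shank to metabotropic receptors and calcium stores. In the hippocampus this machinery is known for its part in long-term potentiation and depression.

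None of the 35 genes passed the test for a change between the groups. All 35 cleared the filter on low counts. With edgeR's quasi-likelihood F test over 20428 genes, 0 members had an adjusted p under 0.05, as had 0% of all genes tested. At an unadjusted p under 0.05 the members held 0 higher and 0 lower in BBP, where all genes tested held 1.98% higher and 1.37% lower. DESeq2 called 0 members at either threshold, beside 2.61% of all genes at an unadjusted p under 0.05 and 0.00943% at an adjusted one. Limma on log2(FPKM + 1) also called 0, beside 2.98% and 0%, and so did edgeR with the replicate number as a block, beside 2.42% and 0%. The log2 fold change was positive for 24 members and negative for 11, with a median of 0.08, beside 52.4% positive and a median of 0.01 over all genes tested. The smallest adjusted p of a member was 0.953. For 29 of the 35 members the whole 95% interval was narrower than a 1.5-fold rise or fall (10301 of all genes tested). For 34 it was narrower than a 2-fold one (14279 of all genes tested), the exception being Homer3. In the plot of fold changes every 95% interval includes 0.

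**Figure D1:**
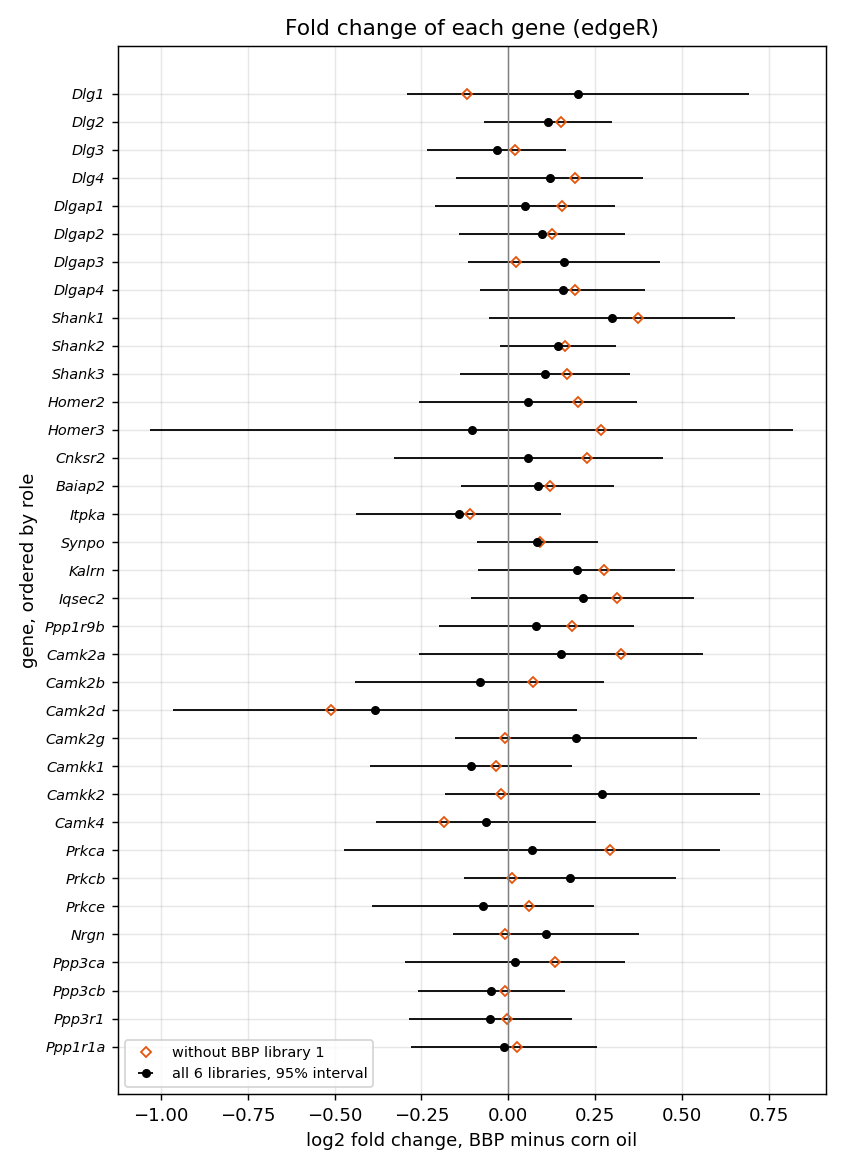
Log2 fold change of each of the 35 genes, BBP minus corn oil, on the horizontal axis, with genes on the vertical axis. Filled points are edgeR estimates from all 6 libraries with 95% intervals, and open diamonds are estimates without BBP library 1. Every interval includes 0, and that of Homer3 is the widest, from -1.03 to 0.82.

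The libraries carried 62477604 to 68422361 deposited estimated counts, and members had from 847 (Camk4) to 245297 (Camk2a) counts in a library. BBP libraries 1 and 2 and corn oil library 3 stood apart from the rest. In BBP library 1 all 14 of 14 striatal medium spiny neuron markers were the highest of the 6 libraries, with a summed level of 228 FPKM against 67.0 to 113 in corn oil and 65.0 to 73.9 in the other BBP libraries. Neocortical markers summed to 136 FPKM there against 60.3 to 68.7 in corn oil, and 64.5 FPKM of that sum was Lamp5 (14.6 to 20.7 in corn oil). In CPM, 7 of the 10 neocortical markers were the highest of the 6 libraries there and 2, Fezf2 and Etv1, were the lowest. Markers of the hippocampal fields were low in the same library, at 36.5 FPKM for dentate granule neurons (43.9 to 68.2 in corn oil), 134 for CA1 pyramidal neurons (162 to 182) and 54.2 for CA2 and CA3 pyramidal neurons (77.0 to 94.5). BBP library 2 had 11.5% of its counts in mitochondrial genes, against 7.11% to 8.57% in the other libraries. In CPM, 7 of 8 dentate markers were the highest of the 6 libraries in BBP library 2 (sum 73.0 FPKM). In FPKM, C1ql2, Trpc6 and Npnt were higher in corn oil library 2, and Dsp and Lct were higher in BBP library 3. Of the 10 oligodendrocyte markers, 6 were highest in CPM in BBP library 2 and 4 in BBP library 1. Their sums there were 851 and 843 FPKM, against 525 to 717 in corn oil and 584 in BBP library 3. The CA2 and CA3 sum of BBP library 2, 73.6 FPKM, lay under the corn oil range. Corn oil library 3 had a choroid plexus sum of 398 FPKM against 71.8 to 141 in the other 5 libraries, and its striatal sum of 113 FPKM was the next after BBP library 1. Of 94 markers in 12 lists, 0 were at 0 in any library, so markers of dentate, CA1, CA2 and CA3 neurons were present throughout. The striatal, neocortical and choroid plexus markers were present throughout as well, so presence alone cannot test the hippocampus label. The members' values are given by library, and the part of these differences in the members' levels was not tested.

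**Figure D2:**
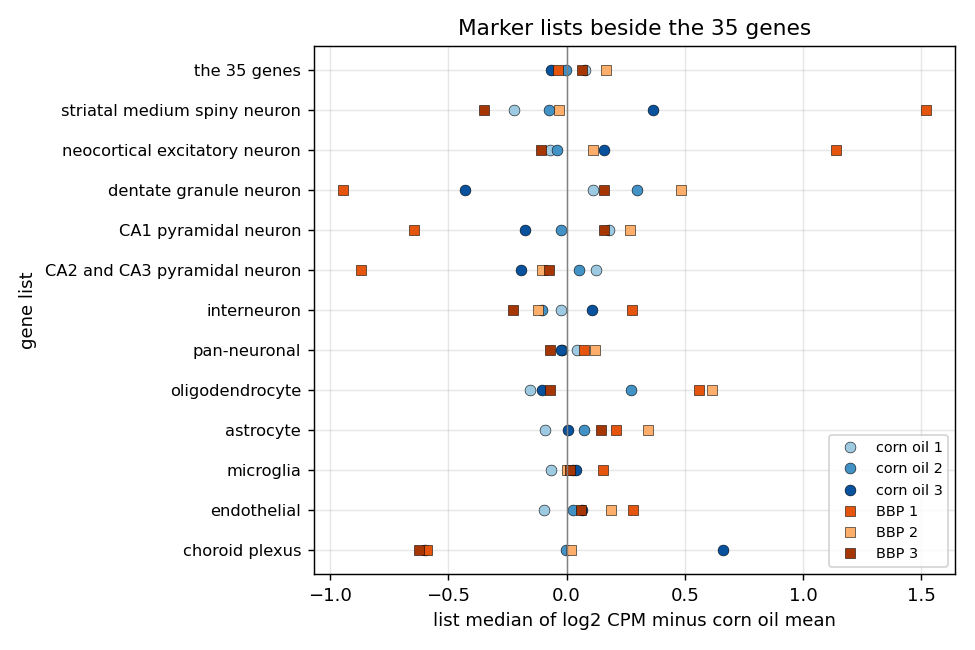
Median over each gene list (vertical axis) of the log2 CPM minus the corn oil mean (horizontal axis), 1 point for each library. Striatal and neocortical markers stand at 1.52 and 1.14 in BBP library 1 and dentate markers at -0.95, while the median of the 35 genes stays between -0.06 and 0.17 in all 6 libraries.

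The median over members of the log2 CPM (counts scaled to library size) minus the corn oil mean was 0.08, -0.0037 and -0.06 in corn oil libraries 1 to 3 and -0.04, 0.17 and 0.07 in BBP libraries 1 to 3. The members went both ways around it. Outside the range of the other 5 libraries lay 22 of 35 in BBP library 1 and 22 in BBP library 2. The counts over the 20428 genes tested were 8652 and 10475. In CPM, BBP library 2 had the highest value of the 6 for 18 members (51.4%, against 24.9% of all genes tested), but in the deposited FPKM for only 11 (31.4%, against 16.2%), Shank2 and Shank3 not among them. BBP library 1 had the lowest CPM for 15 members (42.9%, against 20.2%) and the lowest FPKM for 13 (37.1%, against 17.7%). It had the highest CPM for 7 (20%), near the 22.1% of all genes tested. All 15 members with their lowest CPM in BBP library 1 were also below the corn oil mean in corn oil library 3. So were 13 of the 18 with their highest CPM in BBP library 2. For all genes tested, those with their lowest CPM in BBP library 1 or highest in BBP library 2 were not counted in this way. In corn oil library 3, only 10 of the 35 members were above that mean, against 10504 of the 20428 genes tested. The SD between libraries was larger in BBP than in corn oil for 28 of 35 members, where it was so for 71.0% of all genes tested, and the median SD was 0.11 in corn oil and 0.22 in BBP on the log2 scale (0.14 and 0.24 over all genes tested).

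**Figure D3:**
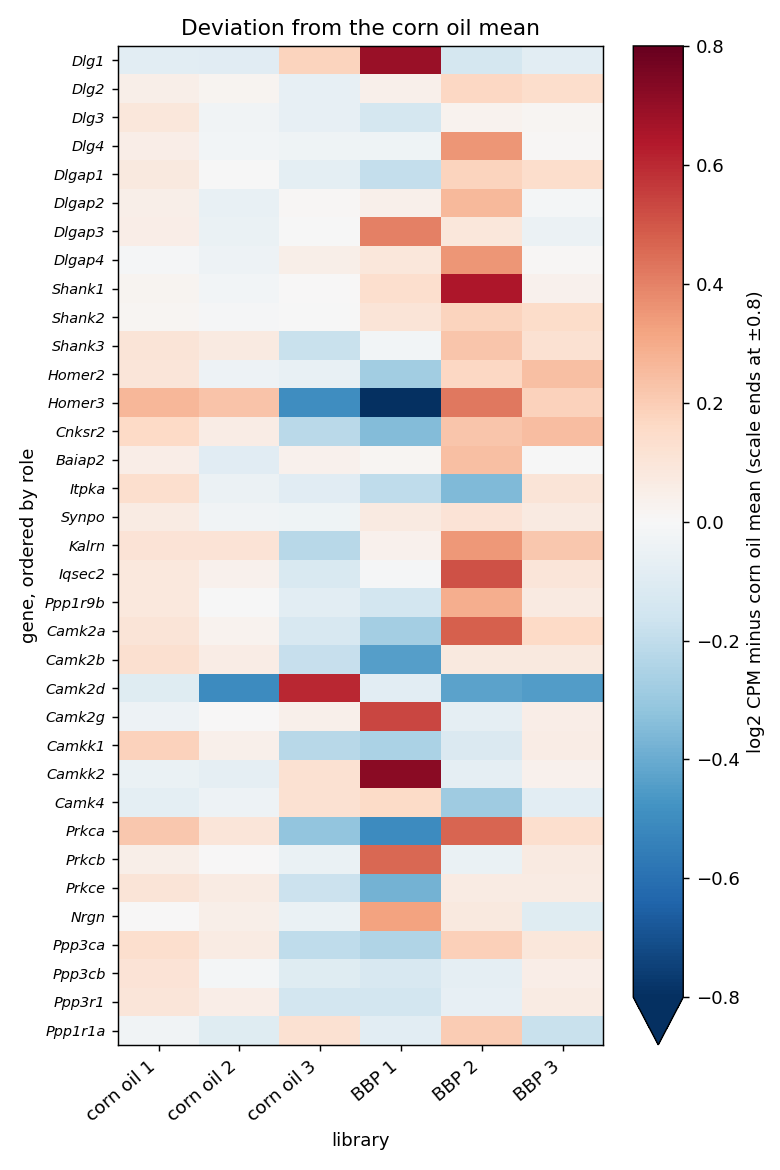
Log2 CPM minus the corn oil mean (colour) for each of the 35 genes (rows, by role) in each library (columns). BBP library 1 holds both the lowest value, -1.35 for Homer3, and the highest, 0.72 for Camkk2, and BBP library 2 holds 0.65 for Shank1.

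By level, 6 members averaged at least 100 FPKM over the 6 libraries, 24 stood between 10 and 100, and 5 under 10. The highest were Nrgn at 651 FPKM, Camk2a at 377, Ppp3r1 at 308 and Ppp1r9b at 187, and the lowest were Camk2d at 2.75 and Dlgap2 at 4.42. Nrgn ranked 30 and Camk2a 52 by mean FPKM among the genes tested. Among the Dlg, Dlgap, Shank and Homer genes, Dlg4 had the highest mean, at 50.4 FPKM.

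**Figure D4:**
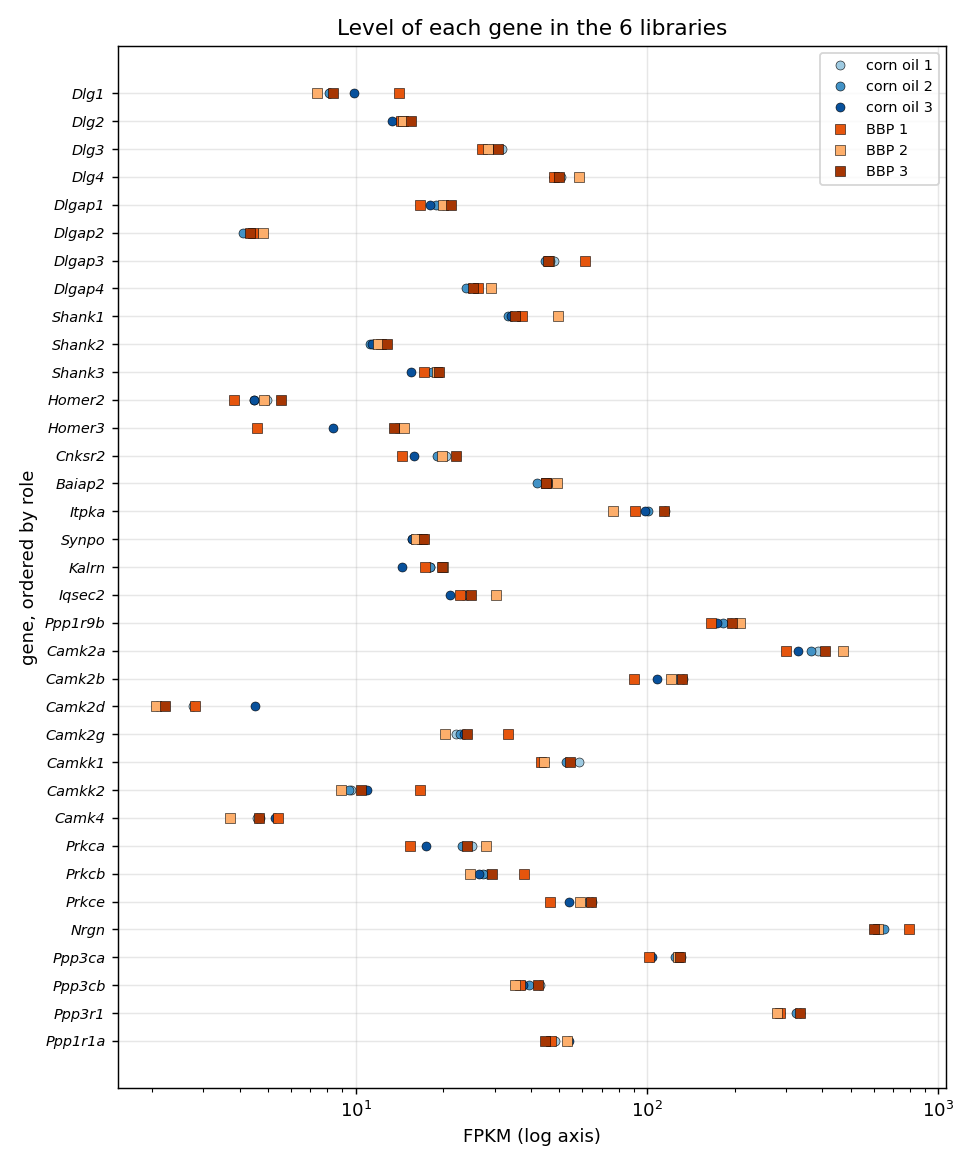
FPKM of each of the 35 genes (vertical axis, by role) in the 6 libraries on a log axis, circles for corn oil and squares for BBP. Nrgn and Camk2a are the highest, and the 6 points of most genes lie close together, with BBP library 1 apart for Homer3, Dlg1, Camkk2 and Dlgap3.

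The Dlg genes encode the membrane-associated guanylate kinases SAP97 (Dlg1), PSD-93 (Dlg2), SAP102 (Dlg3) and PSD-95 (Dlg4). Dlg4 had 50.6, 48.0 and 47.9 FPKM in corn oil libraries 1 to 3 and 47.8, 58.3 and 50.0 in BBP libraries 1 to 3. The BBP values spanned the corn oil values, with BBP library 2 high, and the log2 fold change was 0.12 ± 0.12 (SE, adjusted p = 0.953 in edgeR). Dlg1 had 8.16, 8.12 and 9.88 FPKM in corn oil and 14.1, 7.35 and 8.35 in BBP. Here BBP library 1 alone was high, and the log2 fold change of 0.20 ± 0.21 became -0.12 without it. Dlg2 had 14.3, 14.0 and 13.3 FPKM with corn oil and 14.3, 14.5 and 15.5 with BBP, and Dlg3 had 31.8, 29.3 and 28.7 and then 27.2, 28.4 and 30.8. Both overlapped between the groups, with log2 fold changes of 0.11 ± 0.08 and -0.03 ± 0.09 (SE).

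Among the linkers between Dlg and Shank, all 4 Dlgap genes had a positive log2 fold change, from 0.05 for Dlgap1 to 0.16 for Dlgap3, and none passed the test. Dlgap3, known for its high expression in striatum, had 48.0, 44.6 and 46.5 FPKM in corn oil and 61.5, 46.0 and 45.7 in BBP. In FPKM only BBP library 1, the library with high striatal markers, lay above the corn oil values, and in CPM BBP library 2 did too. Corn oil library 3, the next in striatal sum, was not the highest corn oil library for Dlgap3, and the part of striatal RNA was not tested. Without BBP library 1 the log2 fold change was 0.02. Dlgap4 had 24.4, 23.9 and 25.5 FPKM with corn oil and 26.3, 29.3 and 25.3 with BBP, highest in BBP library 2. Dlgap1 had 19.99, 18.9 and 18.1 FPKM and then 16.7, 19.98 and 21.2, lowest in BBP library 1. Dlgap2 had 4.44, 4.12 and 4.36 FPKM and then 4.44, 4.82 and 4.33, so all 3 overlapped between the groups.

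The Shank genes, which encode the master scaffolds deep in the postsynaptic density, held the member with the highest log2 fold change. Shank1 (chromosome 7, 44310253 to 44360572, mm10) had 34.2, 33.2 and 34.0 FPKM in corn oil and 37.3, 49.5 and 35.2 in BBP. All 3 BBP values were above the corn oil values, BBP library 2 by far the most, and the log2 fold change was 0.30 ± 0.15 (SE, 95% interval -0.06 to 0.65, adjusted p = 0.953 in edgeR). Without BBP library 2 it was 0.09. Exons of Shank1 overlap those of 1700008O03Rik on the opposite strand, which leaves its level uncertain, since no source used here gives the strand setting of the counting. Shank2 had 11.4, 11.2 and 11.4 FPKM in corn oil and 12.2, 11.96 and 12.8 in BBP. Its groups did not overlap either, and its log2 fold change of 0.14 ± 0.07 ranged from 0.13 to 0.16 as each library was left out. Shank3 had 18.7, 18.3 and 15.5 FPKM with corn oil and 17.2, 19.0 and 19.3 with BBP, lowest in corn oil library 3, and its groups overlapped. In all, 3 of 35 members (Shank1, Shank2 and Synpo) had all 3 BBP libraries above all 3 corn oil libraries in CPM, against 5.1% of all genes tested, and 0 had them all below, against 5.32%.

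Homer proteins bind Shank and group I metabotropic glutamate receptors. Homer3 (chromosome 8, 70282827 to 70294361, mm10) was the most variable member, with 14.0, 13.7 and 8.34 FPKM in corn oil and 4.60, 14.6 and 13.6 in BBP. BBP library 1 was the lowest and corn oil library 3 the next. These 2 libraries had the lowest dentate and the highest striatal and neocortical marker sums, and the part of each in Homer3 was not tested. The log2 fold change was -0.10 ± 0.40 (SE), and 0.27 ± 0.21 without BBP library 1. Exons of Homer3 overlap those of Ddx49 on the opposite strand, so its level is uncertain in the same way. Homer2 had 4.96, 4.50 and 4.47 FPKM with corn oil and 3.83, 4.85 and 5.57 with BBP, which held both the lowest value, in BBP library 1, and the highest.

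Of the 7 genes that shape the spine's actin and small GTPases, 6 had a positive log2 fold change. Iqsec2, an exchange factor for Arf6, had 24.2, 23.3 and 21.1 FPKM in corn oil and 22.8, 30.3 and 24.8 in BBP, and Kalrn, which encodes the exchange factor kalirin, had 18.0, 18.1 and 14.4 and then 17.3, 19.9 and 19.8. Both were highest in BBP library 2 and lowest in corn oil library 3, with log2 fold changes of 0.21 ± 0.14 and 0.20 ± 0.12 (SE). Itpka, the kinase that phosphorylates inositol trisphosphate and bundles actin in spines, was the exception in sign, with 115, 101 and 98.8 FPKM in corn oil and 91.3, 76.4 and 115 in BBP. Its BBP libraries 1 and 2 lay below all corn oil libraries while BBP library 3 did not (log2 fold change -0.14 ± 0.13). Ppp1r9b, which encodes spinophilin, a protein that targets protein phosphatase 1 to spines, had 194, 182 and 173 FPKM with corn oil and 166, 209 and 196 with BBP, lowest in BBP library 1 and highest in BBP library 2. Cnksr2, a scaffold for Ras signalling, had 20.4, 19.0 and 15.8 FPKM and then 14.5, 19.9 and 22.1, low in corn oil library 3 and lowest in BBP library 1. Baiap2, the actin regulator IRSp53, had 46.1, 41.8 and 45.8 FPKM and then 45.2, 49.0 and 45.1, and its groups overlapped. Synpo, which encodes synaptopodin of the spine apparatus, had 16.7, 15.7 and 15.7 FPKM and then 16.9, 16.1 and 17.1, and its groups overlapped in FPKM though not in CPM.

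CaMKII, the kinase that keeps itself active after a calcium pulse by autophosphorylation, is built from 4 genes. Camk2a (chromosome 18, 60925618 to 60988152, mm10) had 385, 366 and 331 FPKM in corn oil and 300, 469 and 410 in BBP. The BBP libraries lay on both sides of the corn oil values, BBP library 1 lowest and BBP library 2 highest of all 6. The log2 fold change was 0.15 ± 0.18 (SE) and became 0.33 ± 0.12 without BBP library 1 and -0.04 without BBP library 2. Camk2b had 133, 127 and 108 FPKM in corn oil and 90.6, 120 and 132 in BBP, again lowest in BBP library 1, with a log2 fold change of -0.08 ± 0.16. Camk2g went the other way in that library, with 22.1, 22.8 and 23.6 FPKM in corn oil and 33.2, 20.2 and 24.1 in BBP, and its log2 fold change of 0.20 was -0.01 without it. Camk2d was the rarest, with 2.77, 2.09 and 4.53 FPKM in corn oil and 2.81, 2.06 and 2.22 in BBP. Corn oil library 3 alone was high, and the log2 fold change of -0.38 ± 0.25 was -0.02 without that library.

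Because FPKM is a level per length, the make-up of a family can be compared across libraries. Camk2a made up 70.8% ± 0.133 (SD, n = 3) of the summed FPKM of the CaMKII genes in corn oil and 73.0% ± 3.26 in BBP. The corn oil libraries were almost identical, at 70.9%, 70.6% and 70.8%, and the BBP libraries had 70.3%, 76.7% and 72.2%, so BBP library 2 stood apart, and the difference of 2.27 percentage points was 0.472 without it and 3.65 without BBP library 1. Camk2g took 7.79% in BBP library 1 and 3.31% to 5.04% elsewhere. Dlg4 made up 48.2% ± 0.164 of the Dlg genes in corn oil and 49.2% ± 3.95 in BBP, Ppp3ca 75.0% ± 1.27 and 75.8% ± 2.34 of the calcineurin A genes, and Shank1 54.0% ± 1.64 and 56.6% ± 4.62 of the Shank genes. The Shank1 difference of 2.57 points was 0.110 without BBP library 2 and 4.70 without BBP library 3. Exact permutation tests, two-sided, gave p = 0.4, 1, 0.7 and 0.6 for the Camk2a, Dlg4, Ppp3ca and Shank1 shares (adjusted p = 0.933, 1, 0.933 and 0.933 over the 4). With 3 against 3 such a test cannot go below 0.1, so these p-values do not show that the shares were alike. As a share of summed CPM in place of FPKM, Camk2a differed by 2.82 points with that smallest p (exact permutation test, p = 0.1).

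**Figure D5:**
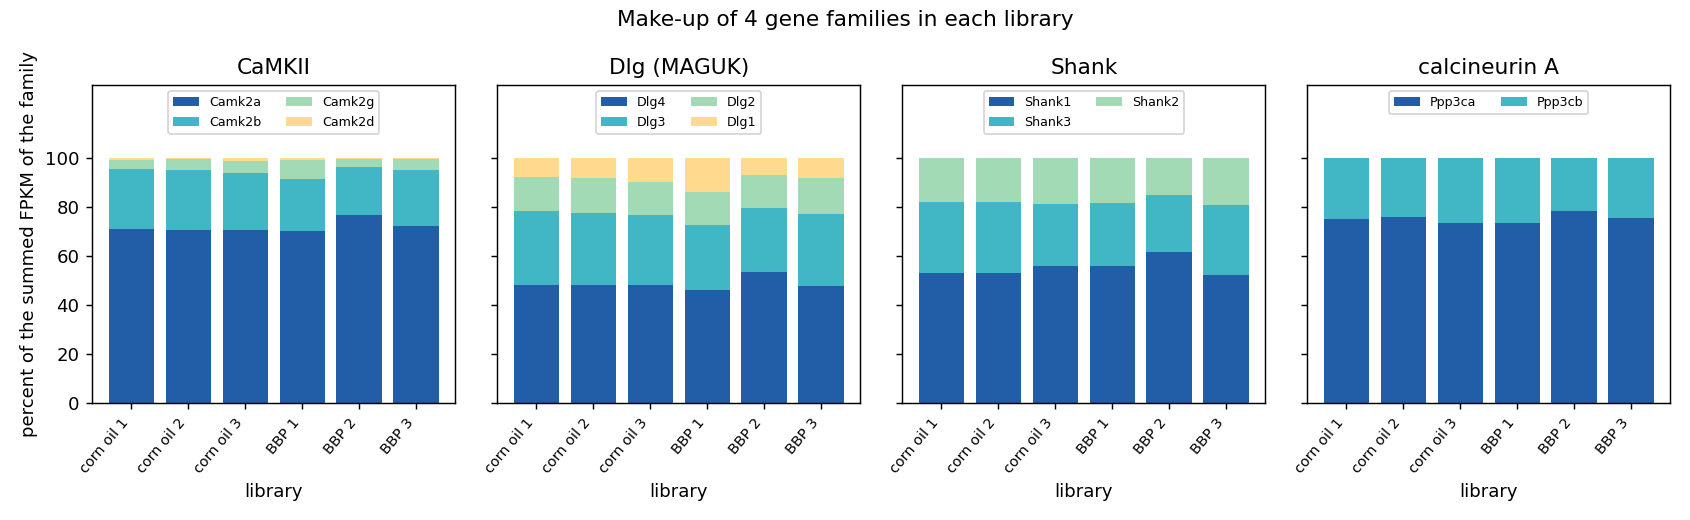
Percent of the summed FPKM of a family (vertical axis) held by each member gene, as stacked bars for the 6 libraries, for CaMKII, Dlg, Shank and the catalytic calcineurin A genes. Camk2a holds 70.3% to 76.7% of CaMKII, and BBP library 2 has the highest Camk2a, Dlg4, Shank1 and Ppp3ca share.

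Among the 3 genes of the CaM kinase cascade, Camkk2 had the highest value of any member relative to the corn oil mean, in a single library. Camkk2 (chromosome 5, 122731170 to 122779409, mm10), which phosphorylates CaMKI, CaMKIV and AMPK, had 9.65, 9.49 and 11.0 FPKM in corn oil and 16.6, 8.88 and 10.5 in BBP. BBP library 1 was above all others, and the log2 fold change of 0.27 ± 0.20 (SE) was -0.02 ± 0.09 without it. Camkk1 had 58.3, 52.8 and 44.2 FPKM in corn oil and 43.3, 44.3 and 54.5 in BBP, with groups that overlapped (log2 fold change -0.11 ± 0.13). Camk4, the nuclear kinase that phosphorylates CREB, had 4.58, 4.70 and 5.29 FPKM with corn oil and 5.43, 3.70 and 4.65 with BBP, highest in BBP library 1 and lowest in BBP library 2.

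The conventional PKC genes Prkca and Prkcb lay on opposite sides of the other libraries in BBP library 1. Prkca had 25.1, 23.1 and 17.5 FPKM in corn oil and 15.3, 27.9 and 24.2 in BBP, and Prkcb had 28.3, 27.3 and 26.5 and then 37.9, 24.7 and 29.3. BBP library 1 thus had the lowest Prkca and the highest Prkcb of the 6, and the log2 fold changes of 0.07 ± 0.24 and 0.18 ± 0.13 (SE) became 0.29 and 0.01 without it. Prkce, a calcium-independent PKC, had 64.6, 63.0 and 53.8 FPKM with corn oil and 46.5, 58.8 and 64.2 with BBP, lowest in BBP library 1. Nrgn encodes neurogranin, a PKC substrate that binds calmodulin when calcium is low, and had 632, 652 and 611 FPKM in corn oil and 792, 621 and 601 in BBP. In FPKM only BBP library 1 lay above the corn oil range, and in CPM BBP library 2 did too. The log2 fold change was 0.11 ± 0.12 (SE), and -0.01 without BBP library 1.

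Calcineurin, the calcium-dependent phosphatase that drives depression of synapses, is represented by 3 genes, with log2 fold changes from -0.05 to 0.02. Ppp3ca, its main catalytic subunit gene in neurons, had 131, 125 and 104 FPKM in corn oil and 102, 127 and 130 in BBP. In each group 1 library was low, corn oil library 3 and BBP library 1, and the log2 fold change was 0.02 ± 0.14 (SE, 95% interval -0.30 to 0.34). The regulatory subunit gene Ppp3r1 had 336, 325 and 286 FPKM with corn oil and 285, 280 and 335 with BBP, and the other catalytic gene Ppp3cb had 42.9, 39.3 and 37.4 and then 36.6, 35.4 and 42.1. Both were lowest in BBP library 2 in FPKM, with groups that overlapped. Exons of Ppp3r1 overlap those of Wdr92 on the same strand, which makes its level uncertain. Ppp1r1a, which encodes inhibitor-1 of protein phosphatase 1, had 48.3, 46.1 and 54.0 FPKM with corn oil and 46.8, 53.1 and 44.5 with BBP, a log2 fold change of -0.01 ± 0.12 (SE).

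In CPM, Dlg1, Dlgap3, Camk2g, Camkk2, Camk4, Prkcb and Nrgn were highest in BBP library 1, by 0.16 to 0.72 on the log2 CPM scale above the corn oil mean. Homer3, Homer2, Prkca, Prkce, Camk2a, Camk2b, Camkk1, Cnksr2, Ppp1r9b, Dlg3, Dlg4, Dlgap1 and the 3 calcineurin genes were lowest there, by up to 1.35 below it. The promoters of 3 of these genes are printed to set a gene that was low in that library (Homer3) beside a pair that was high (Camkk2 and Nrgn). They run from 250 bases before to 50 after the transcription start (RefSeq, GRCm38.p6, the same assembly as mm10), 5′ to 3′ on the gene's strand, and capitals mark the CCAAT box motif on either strand.
Homer3 promoter, chr8:70282749-70283048, plus strand: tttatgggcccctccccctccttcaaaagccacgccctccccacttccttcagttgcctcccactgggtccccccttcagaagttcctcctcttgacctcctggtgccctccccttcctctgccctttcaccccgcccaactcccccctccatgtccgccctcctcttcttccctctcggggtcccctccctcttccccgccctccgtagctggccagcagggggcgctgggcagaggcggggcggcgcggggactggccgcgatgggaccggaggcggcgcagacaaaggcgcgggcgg
Camkk2 promoter, chr5:122779361-122779660, minus strand: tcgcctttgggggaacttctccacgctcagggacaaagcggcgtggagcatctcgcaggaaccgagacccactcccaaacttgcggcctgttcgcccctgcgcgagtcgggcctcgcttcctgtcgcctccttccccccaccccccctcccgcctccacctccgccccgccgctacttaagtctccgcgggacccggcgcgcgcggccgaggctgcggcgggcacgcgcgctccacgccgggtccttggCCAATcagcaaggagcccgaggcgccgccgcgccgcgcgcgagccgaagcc
Nrgn promoter, chr9:37552696-37552995, minus strand: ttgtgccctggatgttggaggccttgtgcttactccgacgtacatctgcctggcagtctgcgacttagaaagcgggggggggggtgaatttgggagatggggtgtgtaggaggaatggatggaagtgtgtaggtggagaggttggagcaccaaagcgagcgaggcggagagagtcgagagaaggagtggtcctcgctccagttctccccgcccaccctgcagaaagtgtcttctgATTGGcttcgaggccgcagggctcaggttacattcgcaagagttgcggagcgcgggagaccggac
The Camkk2 and Nrgn windows each hold 1 CCAAT or its complement ATTGG, and the Homer3 window holds 0. This does not divide the members by their level in BBP library 1. The motif also stands in windows of Camkk1 and Dlg3, which were lowest in that library, and of Dlg1, which was highest there. Baiap2, Dlg2 and Iqsec2, neither highest nor lowest there in CPM, hold it too. Among all 32841 RefSeq promoter windows of 300 bases, 37.4% hold CCAAT on either strand, and 10 of the 37 windows found for 25 of the 35 members do. The cAMP response element, TGACGTCA, stands in 1.79% of all windows and in 0 of the 37. Its shorter core TGACG, which that element contains, stands in 20.8% of all windows on either strand and in 8 of the 37, and TATAAA in 13.6% and in 4. The member windows were rich in GC, with a median of 69.0% against 52.7% for all windows, and Camkk2 had the richest of the 3 printed, at 73.3%. These matches are descriptions of the letters in these windows.

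Leaving out BBP library 1 gave 0 members with an adjusted p under 0.05 in edgeR, beside 0.0142% of all genes tested in that fit. At an unadjusted p under 0.05 it gave 4 members higher in BBP, against 3.17% of all genes tested in that fit, and 0 lower, against 3.83%. These were Camk2a at a log2 fold change of 0.33 ± 0.12 (SE), Iqsec2 at 0.31 ± 0.13, Shank1 at 0.37 ± 0.16 and Kalrn at 0.28 ± 0.12, each with an adjusted p of 0.700 and each highest in BBP library 2. Of the 35 members, 25 were then positive, with a median of 0.12. Without BBP library 2 the median over members was 0.0013, and 1 member, Prkcb, was higher at an unadjusted p under 0.05 with a log2 fold change of 0.28 (2.07% of all genes tested in that fit were higher, and 0 members were lower against 1.36%). Without BBP library 3, Shank1 was higher at 0.42 (4.25% of all genes) and Itpka lower at -0.28 (3% of all genes). Without corn oil library 2, Camk2d was lower at -0.60 (0.767% of all genes) and 0 members were higher (1.49%). The members have longer transcripts than most genes, with a median of 4.86 kb for the longest annotated transcript against 2.91 kb over all genes tested. In BBP library 2, the median log2 CPM minus the corn oil mean was 0.04 over genes with a longest transcript of at least 3.813 kb and -0.04 over those under 2.089 kb. It was 0.18 over the 26 members of at least 3.813 kb. In BBP library 3 the same medians were 0.06, -0.08 and 0.07. The part of transcript length in the members' levels was not tested.

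The other genes of these pathways held 0 of 62 with an adjusted p under 0.05 in edgeR, DESeq2 or limma. At an unadjusted p under 0.05 in edgeR, 4 of 24 further scaffold and spine genes were higher and 0 lower. Of the calmodulin and kinase genes 0 of 22 were higher and 1 lower, and 0 of 16 calcineurin and phosphatase genes were in either direction. All genes tested held 1.98% higher and 1.37% lower. The median log2 fold changes of these lists were 0.08, -0.01 and 0.02. Iqsec1, the closest relative of Iqsec2, had 10.4, 9.96 and 9.36 FPKM in corn oil and 12.1, 11.8 and 11.7 in BBP. Its groups did not overlap. In CPM the 3 BBP libraries were all above corn oil for 4 of the 24 further scaffold and spine genes, against 5.1% of all genes tested. The log2 fold change of Iqsec1, 0.28 ± 0.08 (SE, adjusted p = 0.953 in edgeR), ranged from 0.25 to 0.32 as each library was left out. Sipa1l1, which encodes the spine protein SPAR, a Rap GTPase-activating protein, had 17.0 ± 1.21 FPKM in the controls (SD, n = 3) and 21.6 ± 1.71 in BBP, a log2 fold change of 0.37 ± 0.11 (SE). The other 2 of the 4, named here after their values were seen, were Rapgef4, a cAMP-activated exchange factor for Rap, at 0.29 ± 0.09, and Tanc2, a scaffold that binds PSD-95, at 0.22 ± 0.08 on the log2 scale. Pnck, a kinase of the CaM kinase I family, was the 1 lower gene, with 39.7 ± 3.23 FPKM in the controls and 31.2 ± 7.62 in BBP. Rcan2, a calcineurin regulator, had 46.5 FPKM in BBP library 1 and 23.7 to 28.4 elsewhere, and its log2 fold change of 0.41 ± 0.20 was 0.13 without that library. Itpr1, the calcium release channel of the endoplasmic reticulum, had 12.4 ± 1.21 and 14.8 ± 3.73 FPKM, and Cabin1, a calcineurin-binding inhibitor, 5.83 ± 0.386 and 6.43 ± 0.290.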

How the data were processed

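Polyadenylated RNA of 6 hippocampal libraries was sequenced as strand-marked (dUTP) paired-end libraries with molecular identifiers, per the labels' protocols. The submitters' processing notes name the mm10 build, StringTie 2.1.6, HISAT2 2.2.1, DESeq2, edgeR, cutadapt 1.9 and UMI-tools, without saying what each did. The deposited values are estimated counts and FPKM, per the file headers. How the counts were made is not given in the sources used here. They are whole numbers with an excess of 4s (in corn oil library 1, 1085 genes with a count of 4, 650 with 3 and 361 with 5), so about 4 counts may stand for 1 fragment. The deposited FPKM were used as given.

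Groups follow the labels. The members and gene lists were chosen with earlier results of these data known. edgeR 4.0.16 in R 4.3.3 was fitted to all genes with TMM scaling, the filterByExpr filter and treatment alone in the quasi-likelihood model. P-values were adjusted by Benjamini and Hochberg over all genes tested (threshold 0.05), and SE was taken as |log2 fold change| / sqrt(F). Log2 CPM used a prior count of 2. Named genes were all members and, of each list of other pathway genes, the 2 with the smallest p. Alternatives were DESeq2 1.42.0, limma 3.58.1 on log2(FPKM + 1) or log2(FPKM + 0.1) with a mean FPKM of at least 1 or no filter, median-of-ratios size factors, no count filter, counts divided by 4, a replicate block, and each library left out. All 35 members had identical coordinates in GENCODE M21, and exons of 11 overlap another gene's. Shank1, Homer3 and Ppp3r1 are described above. The others are Dlg2 and Prkce, on the same strand, and Dlgap1, Dlgap4, Shank3, Homer2, Camk4 and Prkca, on the opposite strand. Their levels are uncertain in the same way. On simulated counts for 20428 genes, with 50 changed at each size, the fit called 3 of those changed 1.5-fold, 29 of those changed 2-fold, 38 of the 4-fold and 46 of the 8-fold ones, together with 19 that had no change. No sample was left out, and no 2 libraries had identical counts.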

Additional observations from a re-analysis of the deposited data

How the results depend on the processing

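No member passed an adjusted p of 0.05 in any of the 14 other fits, where the smallest adjusted p of a member was 0.654, and 0 of the other pathway genes passed in any of them. The sign of the log2 fold change was kept in all 14 by 16 members and turned in at least 1 by 19, and the cause was not tested. As each library was left out, the median over members ranged from 0.0013 to 0.12, and the number at an unadjusted p under 0.05 from 0 to 4 higher and from 0 to 1 lower. The log2 fold changes that turned ranged over -0.072 to 0.13 for Ppp3ca, -0.062 to 0.020 for Dlg3, -0.42 to 0.27 for Homer3, -0.10 to 0.0090 for Ppp3cb, -0.042 to 0.23 for Cnksr2, -0.19 to 0.037 for Camk4, -0.17 to 0.29 for Prkca, -0.13 to 0.066 for Ppp1r1a, -0.12 to 0.35 for Dlg1, -0.17 to 0.070 for Camk2b, -0.011 to 0.31 for Camk2g, -0.020 to 0.42 for Camkk2, -0.15 to 0.060 for Prkce, -0.0087 to 0.20 for Nrgn, -0.015 to 0.19 for Dlg4, -0.018 to 0.16 for Dlgap1, -0.036 to 0.18 for Ppp1r9b, -0.041 to 0.33 for Camk2a and -0.042 to 0.20 for Homer2. Ppp3ca also turned in the 3 limma fits, at -0.0076 with log2(FPKM + 1), with or without the filter, and -0.0077 with log2(FPKM + 0.1). The difference in share ranged from -1.19 to 2.55 percentage points for Dlg4 and from -0.46 to 1.87 for Ppp3ca, both negative without BBP library 2, from 0.11 to 4.70 for Shank1 and from 0.47 to 3.65 for Camk2a, both smallest without that library. The Ppp3ca difference was 0.071 without corn oil library 3, and in CPM the Dlg4 difference was 0.409.

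Replicate numbers showed no clear pairing of the libraries. Deviations of same-numbered libraries correlated at -0.08, 0.08 and -0.10 over 20428 genes, and those of differently numbered ones at -0.07 to 0.15. With 3 libraries in each group, these values cannot show whether the libraries were paired. With the number as a replicate block, 0 members passed, the median was 0.08 and 494 genes had an unadjusted p under 0.05, against 405 higher and 280 lower without it.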
